A study of Mus musculus with 5 samples.

Results

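The genes described here are 10 of the 57186 in the gene tables: Actn2, Ldb3, Myoz2, Csrp3, Tcap, Ankrd1, Xirp1, Xirp2, Flnc and Pdlim5. They were listed by name as components of the cardiac Z-disc and of its stretch-sensing complexes, and all 10 passed the filter on low counts. The Z-disc is the border between neighbouring sarcomeres, where alpha-actinin crosslinks the ends of actin filaments and where titin is anchored. PDZ-LIM proteins, myozenins, filamin C, titin-cap and the LIM protein CSRP3 dock there, and several of them pass mechanical load on to signalling proteins. ANKRD1 binds titin outside the Z-disc and also moves to the nucleus, and its mRNA is a widely used readout of stretched heart muscle.

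RNA was measured in snap-frozen cardiac atria of mice. The het group was heterozygous for the MRC2 E990G substitution (het 5, het 6 and het 7, n = 3) and the other group was wild type (WT 7 and WT 8, n = 2). MRC2 is a collagen-binding endocytic receptor of the mannose receptor family. Both groups were 4 to 10 months old and were labelled as batch 2, and the study as a whole describes 7 het and 8 WT animals. The labels used here give no strain, no sex and no exact age. Nothing but the titles states that the libraries come from different animals, so p-values measure the spread between these 5 libraries. The libraries held 17784601 to 28353091 expected counts, of which mitochondrial genes took 12.98% to 17.7%. Mrc2 itself was at 38.6 ± 7.86 CPM (counts scaled to a common library total; SD, n = 3) in het and 38.9 ± 6.67 CPM (SD, n = 2) in WT, and an amino acid substitution is not visible in counts, so this does not check the genotype. Atrial markers were high in every library, with a summed level of 38346 CPM or more, against at most 213 CPM for the ventricular list. In atria measured whole, fewer cardiomyocytes and less RNA per cardiomyocyte cannot be told apart.

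Per length, in TPM (transcript abundance corrected for length), the members covered a wide range of levels. Tcap, which caps the titin N-terminus, had the highest mean level at 2830 TPM, with libraries from 1420 to 4587 TPM. Csrp3 followed at 1614 TPM and Ankrd1 at 953 TPM, and the ranges of these neighbours overlapped. Next came Myoz2 at 534 TPM and Actn2 at 485 TPM, whose ranges also overlapped, then Ldb3 at 344 TPM and Pdlim5 at 209 TPM, each apart from its neighbours. Xirp2 (49.2 TPM), Flnc (35.8 TPM) and Xirp1 (35.6 TPM) were lowest. The range of Flnc overlapped those of both Xin genes, while every Xirp2 library lay above every Xirp1 library.

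Between the genotypes, no member was called in either direction by the edgeR quasi-likelihood test at an adjusted p under 0.05. Over all 16412 genes tested, that test called 2.99% higher and 2.66% lower in het, 5.64% in either direction. The balance of these calls depended on the scaling, with 490 higher and 436 lower by TMM, 795 and 391 by library size alone, and 327 and 568 by upper-quartile scaling. By unadjusted p, 4 of the 10 members were under 0.05 (Ankrd1, Csrp3, Tcap and Xirp2), against 24.7% of all genes. Het and WT libraries did not overlap in CPM for 5 of 10 members, against 42.3% of all genes. The fold change was below 0 for 9 members, with a median log2 fold change of -0.15 (all genes: -0.0014). DESeq2 called 1 member lower in het, Ankrd1, beside 867 genes higher and 780 lower over all. Limma-voom called 0 members, beside 237 genes higher and 222 lower.

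**Figure D1:**
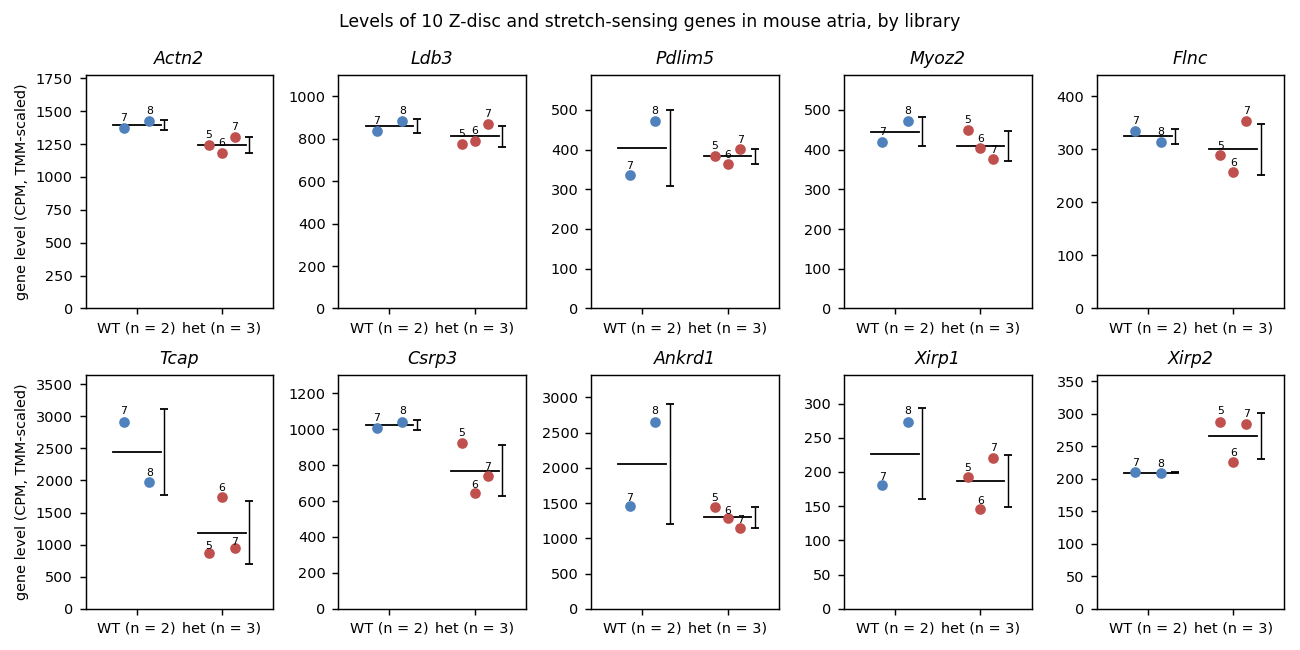
Level of each of the 10 members (CPM, linear axis from 0) in the 5 libraries, 1 panel per gene, with points for libraries numbered by replicate, horizontal lines for group means and error bars for the SD. The Tcap points of het 5 and het 7 (868 and 941 CPM) lie apart from the other 3, and the Ankrd1 point of WT 8 (2655 CPM) lies above all others.

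The promoters of members with an unadjusted p under 0.05 are shown for Ankrd1, Csrp3 and Xirp2, so that the factor motifs near the start of the genes discussed next can be read directly. Each is 250 bases before to 50 after the RefSeq start on GRCm38.p6, 5′ to 3′ along the gene's strand. Their positions are chr19:36119795-36120094 (minus strand) for Ankrd1, chr7:48848002-48848301 (minus strand) for Csrp3 and chr2:67445752-67446051 (plus strand) for Xirp2. Capitals mark matches on either strand to 5 motifs. One is the TATA box core, searched as TATAAA. The second is the M-CAT element bound by TEAD factors, searched as GGAATG. The third is an element of GATA factors, searched as AGATAA, and the others are the SRF-binding CArG box and the MEF2 box.
Ankrd1: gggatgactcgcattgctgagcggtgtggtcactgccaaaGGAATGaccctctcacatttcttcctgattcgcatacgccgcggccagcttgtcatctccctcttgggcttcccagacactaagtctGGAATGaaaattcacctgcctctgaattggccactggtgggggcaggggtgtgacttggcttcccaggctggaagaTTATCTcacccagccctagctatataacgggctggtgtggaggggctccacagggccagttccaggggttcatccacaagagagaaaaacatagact
Csrp3: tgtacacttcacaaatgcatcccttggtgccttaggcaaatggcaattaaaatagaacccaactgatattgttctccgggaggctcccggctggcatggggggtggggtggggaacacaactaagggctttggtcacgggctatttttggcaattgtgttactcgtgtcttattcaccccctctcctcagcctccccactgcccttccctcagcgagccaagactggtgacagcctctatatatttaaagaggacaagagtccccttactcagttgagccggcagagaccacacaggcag
Xirp2: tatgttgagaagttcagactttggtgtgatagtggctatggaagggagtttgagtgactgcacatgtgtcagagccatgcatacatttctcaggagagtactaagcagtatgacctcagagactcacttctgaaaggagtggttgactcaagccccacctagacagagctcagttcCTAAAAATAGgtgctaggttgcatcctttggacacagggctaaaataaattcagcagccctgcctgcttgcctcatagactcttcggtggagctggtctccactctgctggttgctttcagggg
Ankrd1 held GGAATG at positions -210 and -123, counted from 0 at the start base, and AGATAA on the opposite strand at -47. Xirp2 held a MEF2 box at -74, and Csrp3 held none of these 5 motifs. A window was found for 8 of 10 members, none for Tcap or Xirp1. GGAATG occurred in 2 of these 8 (Ankrd1 and Flnc) and in 14.7% of all 32851 windows, and the MEF2 box in 2 (Myoz2 and Xirp2) and in 3.19%. The CArG box, in 1.63% of windows, was found for Ldb3, TATAAA (13.6%) for Pdlim5, and AGATAA (11.2%) for Ankrd1 alone among the 8. The Pdlim5 match lies on the opposite strand at -78 and is absent from its other window. The E-box core CANNTG, not capitalised, was in 6 of the 8 and in 72.3% of windows. These matches describe the letters of the windows and show no binding.

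Tcap (ENSMUSG00000007877), the titin cap that joins titin to the stretch-sensing CSRP3 complex, had the lowest fold change of the 10. Its level was 868 CPM in het 5, 1748 in het 6 and 941 in het 7, against 2918 in WT 7 and 1977 in WT 8. All het libraries lay below both WT libraries, but het 6 was closer to WT 8 than to the other het libraries. The log2 fold change was -1.05 (SE 0.37), with an unadjusted p of 0.0335 and an edgeR adjusted p of 0.163. It was called lower when every gene with a count was tested (adjusted p 1.5e-04, edgeR), and not in the other 16 alternatives. That fit called 1304 genes higher and 907 lower over all. Leaving out each library in turn gave -0.73 (without WT 7, edgeR adjusted p 0.513) to -1.43 (without het 6, edgeR adjusted p 0.0501).

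Ankrd1 (ENSMUSG00000024803) stood at 1450.1 CPM in het 5, 1283 in het 6 and 1152 in het 7, against 1451 in WT 7 and 2655 in WT 8. WT 7 exceeded het 5 by about 1 CPM, and WT 8 stood far above the other 4 libraries. The log2 fold change was -0.66 (SE 0.23), with an edgeR adjusted p of 0.120. Without WT 8 it was -0.15 (edgeR adjusted p 0.678), and without WT 7 it was -1.03 and called (edgeR adjusted p 0.019). It was also called by DESeq2 (-0.67, adjusted p 0.041) and when every gene with a count was tested (-0.62, edgeR adjusted p 0.0027). Both fits called more genes over all than the main fit, 867 higher and 780 lower by DESeq2 and 1304 and 907 with no filter.

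Csrp3 (ENSMUSG00000030470) encodes the muscle LIM protein, a Z-disc partner of TCAP. Its level was 923, 643 and 738 CPM in het 5, 6 and 7, against 1005 and 1043 CPM in WT 7 and 8. No het library reached the lower WT library, het 5 being the nearest. The log2 fold change of -0.41 (SE 0.16) had an unadjusted p of 0.0241 and an edgeR adjusted p of 0.135.

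For the structural scaffolds the group means differed by less than 0.2 on the log2 scale, which does not show them to be equal. Actn2 (ENSMUSG00000052374), the sarcomeric alpha-actinin, stood at 1242, 1185 and 1302 CPM in het and 1369.9 and 1423 CPM in WT. These groups did not overlap, yet the gap was small, with a log2 fold change of -0.17 (SE 0.14) and an edgeR adjusted p of 0.484. Ldb3 (ENSMUSG00000021798), which encodes the PDZ-LIM protein ZASP that binds alpha-actinin, overlapped at 777, 789 and 869 CPM in het and 836 and 882 CPM in WT, a log2 fold change of -0.08 (SE 0.14). Pdlim5 (ENSMUSG00000028273), the PDZ-LIM protein ENH, lay within the WT range in all het libraries, at 385, 362 and 400.2 CPM against 337 and 471 CPM. Its log2 fold change was -0.08 (SE 0.16). For Ldb3 and Pdlim5 the edgeR adjusted p was 0.760 and 0.805.

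Myoz2 (ENSMUSG00000028116), the cardiac myozenin that tethers calcineurin to alpha-actinin, was at 449, 403 and 375 CPM in het and 419 and 471 CPM in WT. Flnc (ENSMUSG00000068699), the actin crosslinker filamin C that links Z-discs to the membrane, was at 289, 258 and 353 CPM in het and 334 and 315 CPM in WT. Both overlapped between groups, at log2 fold changes of -0.12 (SE 0.14) and -0.11 (SE 0.15).

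The Xin repeat genes, whose proteins bind actin at intercalated discs, differed from one another. Xirp1 (ENSMUSG00000079243) overlapped, at 193, 146 and 221 CPM in het and 180.3 and 274 CPM in WT, a log2 fold change of -0.28 (SE 0.22, edgeR adjusted p 0.462). Xirp2 (ENSMUSG00000027022) was at 288, 226 and 284 CPM in het and 209.9 and 209 CPM in WT, so every het library was above both WT libraries. Its log2 fold change, the one positive value among the 10, was 0.34 (SE 0.14), with an unadjusted p of 0.0334 and an edgeR adjusted p of 0.163. Per length, the levels were 44.3, 45.3 and 52.4 TPM in het and 49.99 and 54.1 TPM in WT, so the groups overlapped and the het mean was the lower.

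**Figure D2:**
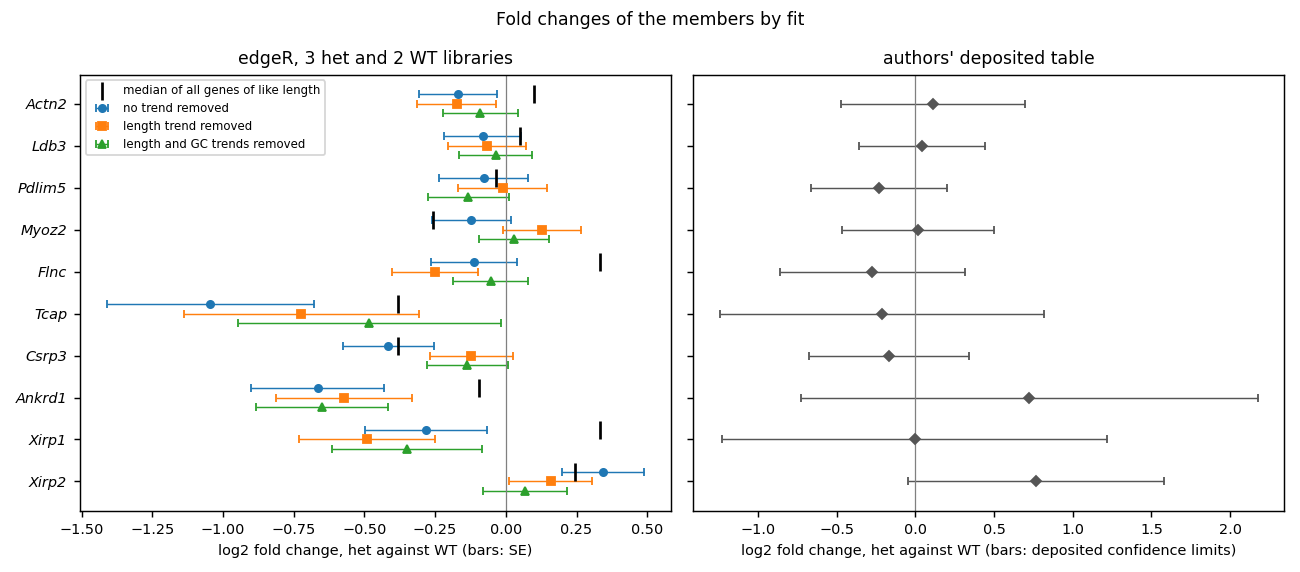
Log2 fold change (het against WT) of the members. The left panel gives edgeR values with no trend, the length trend, or the length and GC trends removed, with bars for the SE and black ticks for the median of genes of like length, and the right panel gives the authors' deposited table with its confidence limits. With both trends removed, Tcap moves from -1.05 to -0.48 and Xirp2 from 0.34 to 0.07. Ankrd1 goes from -0.66 to -0.57 with the length trend removed and to -0.65 with both.

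Fold changes in this data set ran with gene length. The median log2 fold change was -0.38 in the shortest decile of genes, which holds Csrp3 and Tcap, -0.26 in the second, which holds Myoz2, and 0.33 in the longest, which holds Xirp1 and Flnc. With trends on length and GC content removed, Csrp3 stood at -0.14, Tcap at -0.48, Myoz2 at 0.03 and Xirp2 at 0.07. The GC content of Xirp2 came from 2 of its 11 transcripts. It leaves out the short transcript described below, which held 37.3% of Xirp2 counts on average. With the length trend alone removed Xirp2 was at 0.16. Xirp1 and Pdlim5 moved away from 0, to -0.35 and -0.13, and Xirp1 was at -0.49 with the length trend alone removed. Ankrd1, in a decile with a median of -0.09, was at -0.57 with the length trend alone removed. With both trends removed it was at -0.65 (edgeR adjusted p 0.262). The median of the 10 was then -0.11. The part of length in the values of single members was not tested.

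Summed, the 10 members gave 6863, 7044 and 6635 CPM in het 5, 6 and 7 against 9061 and 9720 CPM in WT 7 and 8, a ratio of 0.729. Without Tcap the ratio was 0.815, and without Tcap, Ankrd1 and Csrp3 it was 0.931 with overlapping groups. By profile over the 5 libraries, Actn2 and Ldb3 were nearest, with a root mean square difference of 0.054 in centred log2 CPM. Tcap was the farthest from each of the other 9 and no nearer than 0.625 to any.

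Transcript tables separate isoforms, with reads divided among overlapping transcripts by an estimate. The members have 58 transcripts in them, of which 41 were tested. No transcript was called, 0% of the 38651 tested in all, and 11 of the 41 had an unadjusted p under 0.05 (12.7% over all, edgeR). In 7 of the 10 members at least 2 transcripts held a mean share of 5% or more of the gene's counts. Tcap had 1 transcript, and in Actn2 and Myoz2 the leading one held 99.7% and 96.8%.

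Xirp2 divided its counts between 2 transcripts. ENSMUST00000112347, of 11979 bases in 9 exons, held 78.2%, 68.0% and 75.3% in het 5, 6 and 7 and 52.3% and 37.8% in WT 7 and 8. ENSMUST00000239060, of 2704 bases, held 21.4%, 31.7% and 24.5% against 47.5% and 61.5%. Every het library thus had the larger share of counts in the long transcript, and WT 8 alone had most of its counts in the short one. Counts weight long transcripts. The mean share of the long transcript was 73.8% ± 5.28 (SD, n = 3) in het and 45.1% ± 10.3 (SD, n = 2) in WT, 28.7 percentage points apart. The exact two-sided permutation test gave p = 0.2, the smallest it can give with 10 splits. Leaving out each library in turn gave differences of 21.5 to 36.0 points.

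In levels per length, the long transcript was at 18.1, 12.9 and 19.3 TPM in het and 8.99 and 5.72 TPM in WT. The short one was at 24.8, 30.6 and 31.5 TPM against 40.2 and 47.0 TPM. By isoform percent, which is corrected for length, the short transcript led in every library. It held 56.0%, 67.45% and 60.1% in het and 80.4% and 86.9% in WT. The long transcript held 41.0%, 28.5% and 36.9% against 18.0% and 10.6%, a difference in means of 21.2 points. The edgeR values that follow are for the 2 transcripts in counts. Their log2 fold changes had opposite signs, 1.07 (SE 0.22) and -0.76 (SE 0.17), and edgeR adjusted p-values of 0.217 and 0.222.

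**Figure D3:**
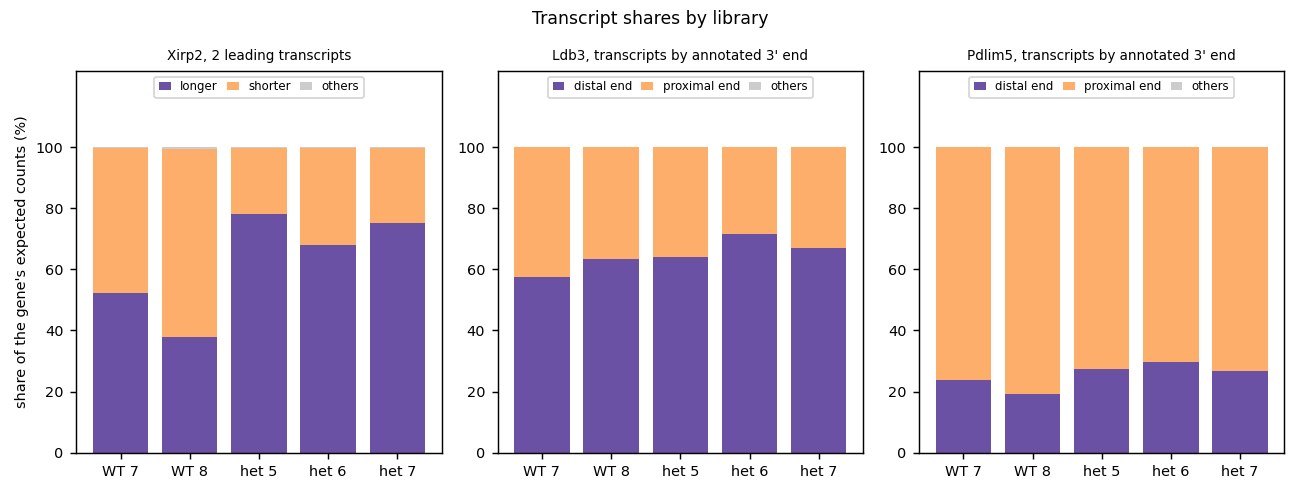
Share of each gene's expected counts (%) by transcript or transcript group in the 5 libraries, for Xirp2, Ldb3 and Pdlim5. The long Xirp2 transcript takes 68.0% to 78.2% in het and 37.8% to 52.3% in WT, and the Ldb3 and Pdlim5 transcripts with distal 3′ ends take a slightly larger share in het.

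Ldb3 and Pdlim5 both have transcripts ending at a distal site and others ending far upstream. Those with the distal end, which for Ldb3 include ENSMUST00000022327 (5119 bases, 14 exons), took 64.1%, 71.5% and 66.9% of Ldb3 counts in het and 57.5% and 63.2% in WT. The means were 67.5% ± 3.75 (SD, n = 3) and 60.3% ± 4.09 (SD, n = 2), and the groups did not overlap in this class, which was defined after values were seen. ENSMUST00000022327 alone did overlap, with 58.3%, 68.0% and 62.8% in het and 54.0% and 61.7% in WT, and its difference of 5.18 points was 1.33 points without WT 7. Counts weight long transcripts, and by isoform percent, which is corrected for length, the distal class held 35.2% in het and 28.2% in WT. ENSMUST00000022330, a short form of 1586 bases with a coding sequence of 981 bases against 2169 in the long one, held 33.3% of counts on average and was the leading form by isoform percent in every library. Pdlim5 ran the same way, with 27.3%, 29.7% and 26.6% distal in het and 23.95% and 19.4% in WT. By isoform percent the distal class held 12.97% in het and 9.47% in WT. The leading form, ENSMUST00000170361 (2010 bases, coding 717), has the proximal end, and the long distal ENSMUST00000029941 (5016 bases, coding 1773) held 23.5% on average. The other distal Pdlim5 transcripts are not long, at 669 to 2089 bases.

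Shares were also estimated for the other members. ENSMUST00000237142, of 2020 bases in 9 exons, held 65.4% of Ankrd1 counts on average, and its share differed between groups by -1.18 points, from -5.26 to 2.90 points with each library left out in turn. ENSMUST00000025718 held 21.8%. The leading Csrp3 transcript held 94.4%, with 5.40% in a form annotated with a retained intron. The leading Flnc transcript, of 47 exons, held 93.7%, with 5.96% in a form of 48 exons. The leading Flnc share differed by -1.35 points in counts and by -5.33 points in isoform percent. The longer Xirp1 transcript took 82.0% ± 3.83 (SD, n = 3) in het and 86.4% ± 3.66 (SD, n = 2) in WT.

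The same comparison over the series gives a background for Xirp2. Among 5876 genes with 2 transcripts at or above 5% share, the longer had a higher mean share in het in 62.7%, by a median of 1.97 points over all. Het and WT did not overlap in 32.4% of these genes, and in 22.6% with het higher. Xirp2 ranked 117 of 5876 by the difference. Among the 1230 genes whose longer transcript was at least 2 times the shorter, it ranked 5, and the longer share was higher in het in 71.6%.

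**Figure D4:**
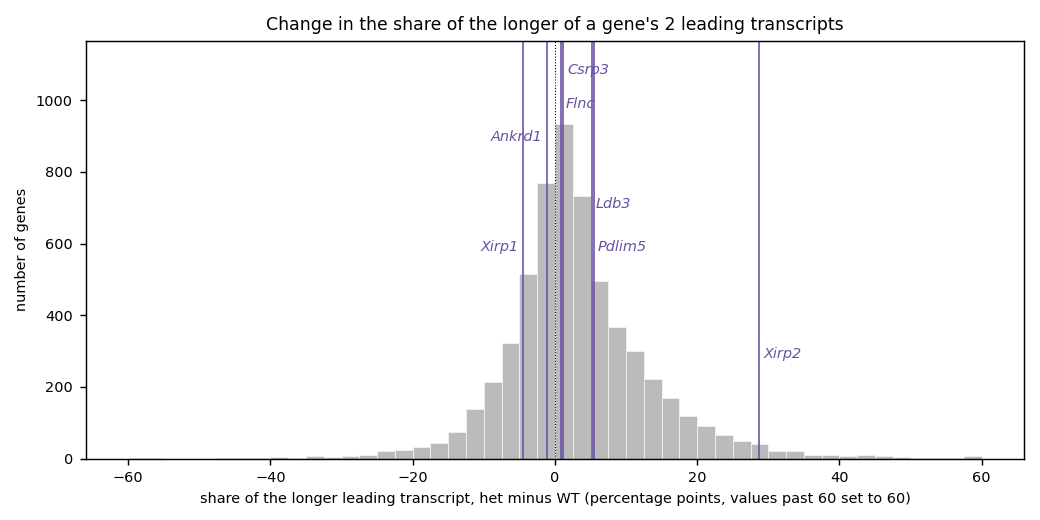
Number of genes by the difference in the share of the longer of 2 leading transcripts, het minus WT (percentage points, values past 60 set to 60), over 5876 genes, with lines for the 7 members that have such a pair. The bulk lies just above 0 and Xirp2 lies far to the right at 28.7 points.

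The authors' deposited table of het against WT holds 14927 genes, none with an adjusted p under 0.05. Which libraries entered it is not given in the sources used here, so it is read as a description beside the 5 libraries. Log2 fold changes in the authors' deposited table were positive for 5 of the 10 members, with a median of 0.0061. Xirp2 is at 0.76 in the authors' deposited table (limits -0.05 to 1.58, adjusted p 0.855). Ankrd1 is at 0.72 in the authors' deposited table (limits -0.73 to 2.17), the opposite sign to the 5 libraries. Tcap is at -0.21 and Csrp3 at -0.17 in the authors' deposited table.

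Genes around the members were read from 9 lists of Z-disc partners, 104 genes of which 102 were tested. edgeR called 6 of them higher and 7 lower in het, beside 2.99% and 2.66% of all genes. By upper-quartile scaling the counts were 4 and 10, and by library size alone 10 and 2. Nebl, the nebulette that binds actin at the Z-disc, rose from 259.9 ± 8.26 CPM (SD, n = 2) in WT to 442 ± 16.4 CPM (SD, n = 3) in het, a log2 fold change of 0.77 (edgeR adjusted p 0.023). It was the 1 call of 16 in the alpha-actinin and capping list, whose median was 0.03. Of 12 PDZ-LIM, FHL and CRP genes 2 fell, Pdlim4 (-0.64, edgeR adjusted p 0.031) and Pdlim7 (-0.52, edgeR adjusted p 0.049). The list's median was -0.25, and -0.07 with the length and GC trends removed. Among 10 filamin and chaperone genes 2 fell, the ubiquitin ligase Stub1 and the small heat shock protein Hspb8, each at -0.49. The median was -0.30, and -0.08 with these trends removed.

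Of 13 costamere genes, vinculin (Vcl) rose by 0.64 on the log2 scale, from 77.4 ± 9.40 CPM (SD, n = 2) to 120.4 ± 16.5 CPM (SD, n = 3), while Itgb1bp2 (-0.60) and the stretch-sensing adaptor Bcar1 (-0.50) fell. In the list of 15 Yap, Tead and Srf genes, 4 rose and 1 fell. They were the kinase Lats1 (0.63), the SRF coactivator Myocd (0.85), the TEAD factor Tead1 (0.53) and Lats2 (0.51, named here after its value was seen), with the secreted Yap target Ccn1 at -0.49. Tead1 stood at 201 ± 15.1 CPM (SD, n = 3) in het and 139 ± 15.8 CPM (SD, n = 2) in WT. Median log2 fold changes in these lists were 0.16 and 0.18, and 0.08 and 0.18 with the length and GC trends removed.

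Lists with no call included myozenins and calcineurin (0 of 10 tested; Rcan2 0.09 and Ppp3cb 0.31), ankyrin repeat proteins and titin anchors (0 of 9; Trim54 -0.55, edgeR adjusted p 0.054), Xin partners at the intercalated disc (0 of 9; Ctnnb1 0.06 and Dsp 0.40) and PDZ-LIM-bound kinases (0 of 8; Prkcd 0.01 and Prkd3 0.42). By unadjusted p, 2, 2, 4 and 2 genes in these lists were under 0.05, beside 24.7% of all genes. None of the 13 called genes passed the edgeR threshold once the trends on length and GC were taken out, and without het 5 or without het 7 edgeR called 0 genes of these lists. Some of the 13 log2 fold changes stayed near their size with the trends taken out, as for Myocd (0.72), Nebl (0.56, edgeR adjusted p 0.067) and Ccn1 (-0.38), and others came close to 0, as for Pdlim7 (-0.08).

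**Figure D5:**
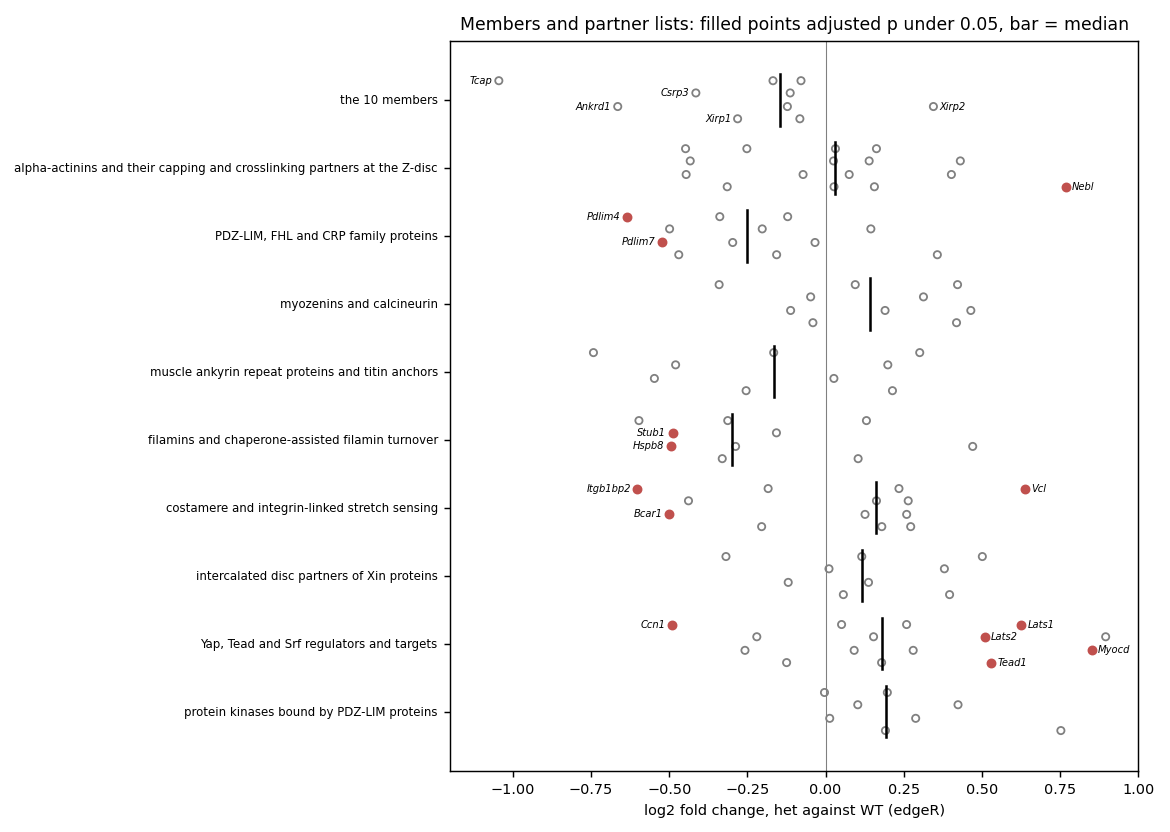
Log2 fold change, het against WT, of the 10 members and of 9 partner lists, with filled points for an edgeR adjusted p under 0.05 and bars for the medians. The members lie mostly below 0 with no filled point, and 13 partner genes are filled, 6 above 0 and 7 below.

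Summed cell type markers separated the groups for some lists and overlapped for others. Among all single genes tested, het and WT did not overlap in 42.3%, and edgeR called 2.99% higher and 2.66% lower in het. Fibroblast markers overlapped, at 1889 to 2118 CPM in het and 1539 to 2040 CPM in WT. Lum of that list was called higher (log2 fold change 0.50, edgeR adjusted p 0.044). Ventricular, smooth muscle and pericyte, endothelial, adipocyte, Schwann cell and mesothelial sums overlapped too. Within them Myh7 (ventricular) and Tagln (smooth muscle) were called lower, at log2 fold changes of -0.58 and -0.93 (edgeR adjusted p 0.044 and 0.023). The 7 atrial cardiomyocyte markers summed to 38346 to 45255 CPM in het and 60484 to 67872 CPM in WT, with 2 of 7 called lower (Myl4 and Nppa). Nppa alone held 17767 to 20476 CPM in het and 27133 and 33852 CPM in WT. Bmp10 of the same list had a log2 fold change of 0.002. Of 9 skeletal muscle markers, summed at 793 to 942 CPM in het and 1343 to 1464 CPM in WT, 6 were tested and Ckm and Myl1 were called lower. Most of that sum was Ckm (544 to 703 CPM in het, 931 and 1060 CPM in WT) and Myl1 (192 to 238 CPM, 395 and 386 CPM). Myh4, Myh1 and Mylpf were at or near 0, and Actn3, Acta1, Tnnt3 and Tnni2 reached at most 7.58, 4.79, 2.91 and 7.07 CPM in any library. The part of skeletal muscle in the sum was not tested. Erythroid markers summed to 2590 to 5275 CPM in het and 599 to 2227 CPM in WT with no call of 5. Macrophage markers summed to 240.1 to 329 CPM and 213 to 217 CPM with 2 of 6 called higher (Adgre1 and Cd163). The macrophage markers C1qa, C1qb and Cd68 had log2 fold changes of 0.10, 0.06 and 0.10. Lymphocyte sums separated at low levels, 6.06 to 11.1 CPM in het and 4.50 to 5.49 CPM in WT. Igkc of the lymphocyte list was called higher (log2 fold change 2.01, edgeR adjusted p 0.032). The part of cell makeup in the members' values was not tested.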

How the data were processed

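PolyA-selected stranded RNA of 5 atrial libraries, 3 het and 2 WT, was compared. Per the submitters' processing notes the reads were handled with Trim Galore, STAR, RSEM and SAMtools on GRCm39. The authors deposited RSEM expected counts, TPM and isoform percent per gene and transcript, per the file headers. RSEM estimates how reads divide among transcripts. They also deposited a limma table with log2 fold changes, a moderated t score and p-values, per the file headers.

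Expected counts were rounded. edgeR 4.0.16 (R 4.3.3) fitted genotype on all 5 libraries with filterByExpr, TMM and Benjamini-Hochberg adjustment over all 16412 genes or 38651 transcripts, at a threshold of 0.05. Alternatives used DESeq2 1.42.0, limma 3.58.1 on log2(TPM + 1) and log2(TPM + 0.1), voom, library size alone, no filter, and offsets for length and GC (mgcv 1.9.3). The depth was 17784601 to 28353091 counts per library. Scripts were tested on simulated data.

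GC content was known for 98.43% of tested genes, from GENCODE M21 on GRCm38, used only for symbols, GC and transcript structure. Promoters came from RefSeq. CPM is the count scaled to a common library total with TMM factors, and a share is a transcript's part of its gene's expected counts.

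All members and Mrc2 were named, with called genes in each partner list (up to 4 by p, otherwise 2 by TPM). One gene that this rule names is not reported here. Members and lists were chosen with earlier results of these data known. Distal ends (transcript ends within 12000 bases joined) and the longer-transcript comparison were chosen after values were seen.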

Additional observations from a re-analysis of the deposited data

How the results depend on the processing

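Replicate numbers come from the titles, and nothing there states that equal numbers mark a pair, so no paired analysis was made. Over all genes, 490 were called higher and 436 lower in het. The counts higher and lower were 1304 and 907 with no filter on low counts, 867 and 780 with DESeq2, 237 and 222 with limma-voom, 0 and 0 with quality weights, 0 and 1 on log2(TPM + 1), 2 and 3 on log2(TPM + 0.1), 43 and 25 with the length trend removed, and 36 and 18 with length and GC removed. Library size alone gave 795 and 391, and upper-quartile scaling 327 and 568. Leaving out each library gave 0 to 588 higher and 0 to 290 lower, with 0 and 1 without het 5, 5 and 6 without het 6, 0 and 0 without het 7, and 260 and 134 without WT 7. Without a WT library the other is assumed to vary like het.

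Among the 10 members 0 were called, against 2 lower with no filter, 1 with DESeq2 and 1 without WT 7. The partner lists had 6 higher and 7 lower. They had 10 and 2 with library size alone, 4 and 10 with upper-quartile scaling, 11 and 12 with DESeq2, 3 and 1 with limma-voom, 0 and 0 with quality weights and on both TPM scales, and 1 and 0 with the length trend or the length and GC trends removed. No filter gave 13 higher and 10 lower. Leaving out each library in turn gave 0 to 8 higher and 0 to 2 lower.

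On log2(TPM + 1) and log2(TPM + 0.1) the sign of the log2 fold change turned for Myoz2 (0.063 and 0.063), Xirp2 (-0.137 and -0.140), Flnc (0.080 and 0.082) and Pdlim5 (0.018 and 0.018). Myoz2 was at 0.129 with the length trend removed and at 0.029 with length and GC removed. Leaving out each library gave -0.549 to 0.065 for Xirp1 and -0.298 to 0.197 for Pdlim5, the positive value without WT 8 in both. The cause was not tested. Actn2, Ldb3, Csrp3, Tcap and Ankrd1 kept their sign in all 17 alternatives. By isoform percent the difference in leading share moved from -1.35 to -5.33 points for Flnc and from 2.02 to 5.02 points for Pdlim5, and was -5.25 points for Xirp1. Group sizes of 3 and 2 limit the precision of every comparison.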

Other observations

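Ttn, the giant spring protein that spans from the Z-disc to the middle of the sarcomere, was the 1 gene of the partner lists called with length and GC trends removed. Its log2 fold change was 1.32 in that fit (edgeR adjusted p 0.026) and 0.30 in the fit on counts alone (edgeR adjusted p 0.234). Ttn is 61444 bases long in the gene tables, and the median log2 fold change of the longest decile, which starts at 5356 bases, was 0.33. The part of the fitted trend in this call was not tested, and the call is given as a value only.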
